A study of Mus musculus with 8 samples.

Results

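The receptors for the incretins and for glucagon (Glp1r, Gipr and Gcgr) and 4 genes that desensitise such receptors (Grk5, Grk6, Arrb1 and Arrb2) were followed in mouse pancreatic islets. The 7 genes were chosen by name, for their place in incretin and glucagon signalling, with earlier results of these data known. All 7 were among the 17362 genes measured. Single nucleus RNA-seq was performed by the authors on islets of wild type (WT) mice and of whole-body Med14 S983A knock-in mice, called mutant here, in which a serine of the Mediator subunit Med14 is replaced by alanine. Islets of both genotypes were cultured without treatment (CON), with forskolin (FSK), a drug that switches on adenylyl cyclase without a receptor, or with Ex-4, the long-acting GLP-1 receptor agonist Exendin-4, at 10 nM for 16 h. The labels state neither the dose of FSK nor the age, sex and strain of the mice. As the knock-in is in every cell of the animal, a difference between genotypes need not arise in the cell type described. Nuclei of all 6 conditions were spread over 8 sublibraries, which are therefore not replicates of a condition, and the table has 54 columns, 1 pooled value per condition for every one of 9 cell types.

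GLP-1 and GIP are gut hormones that act on beta cells to enhance glucose-stimulated insulin secretion, and glucagon is the hormone of alpha cells. Their receptors belong to the secretin family, couple mainly through the stimulatory G protein to adenylyl cyclase, and raise cAMP. An active receptor is phosphorylated by G protein-coupled receptor kinases (GRKs) and then bound by the beta-arrestins encoded by Arrb1 and Arrb2, which uncouple it from the G protein and guide it into clathrin-coated pits. Grk5 and Grk6 belong to the branch of this kinase family that associates with membranes constitutively.

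Values are given as counts per 10000 counts of a column (CP10K), with 95% exact Poisson intervals for a level and 95% exact intervals for a ratio. The intervals cover counting error only. With no replicates, no test between conditions could be run. Condition cannot be told apart from any batch of islet preparation or barcoding, and the labels name no such batch. A gene was taken as changed when its ratio of CP10K passed 1.5-fold, and each such statement describes the 2 pools compared. Column totals were 1915006 to 3094377 counts in beta cells, 269394 to 810127 in alpha cells and 362410 to 631433 in delta cells, and went down to 1522 in ductal cells. Marker lists were highest in the cell type they mark, except for the neuron list, which was higher in beta, PP and delta columns than in the columns labelled neurons. These latter columns ranked second for beta cell markers, at a summed 15.3 to 49.5 CP10K against 60.4 to 101 in beta cells, so they are called the columns labelled neurons. In such pools, fewer nuclei with a transcript and less transcript per nucleus cannot be told apart. Med14 itself was 0.478 CP10K in untreated WT beta cells, 0.753 after FSK and 0.463 after Ex-4. In mutant beta cells it was 0.384, 0.716 and 0.444. Both FSK columns were thus the highest, with intervals apart from those of CON. The level of Med14 does not check a point mutation.

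All 7 genes have a single match in GRCm39 (GENCODE M39). Glp1r lies on the plus strand of chromosome 17 at 31120525 to 31159765, Gipr on the minus strand of chromosome 7 at 18888169 to 18900228 and Gcgr on the plus strand of chromosome 11 at 120413696 to 120429815. Grk5 covers 60878187 to 61087409 on chromosome 19, Grk6 55592885 to 55608888 on chromosome 13, Arrb1 99184470 to 99256620 on chromosome 7 and Arrb2 70323381 to 70333488 on chromosome 11, each on the plus strand. The spans differ widely, from 10.1 kb for Arrb2 to 209 kb for Grk5. Each locus overlaps 1 to 4 other annotated genes, so reads of the overlap could not be assigned with certainty, as the use of strand in counting is not known here.

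Because FSK and Ex-4 act through cAMP, the promoters were searched for the letters of the cAMP response element. RefSeq promoter sequences (GRCm38.p6, 250 bases before to 50 after the start) were at hand for 4 of the 7 genes: Glp1r, Gcgr, Grk5 and Grk6. Neither the full element TGACGTCA nor its core TGACG (or CGTCA on the other strand) occurred in any of them, whereas 1.79% of the 32851 promoters held the full element and 20.8% held the core. This says only that these letters are not in these windows. The 250 bases before the start are shown for both receptors, which fell past 1.5-fold with FSK in WT beta cells, and for Grk5, which like Grk6 differed between genotypes in untreated beta cells. Capitals mark GGCGGG or, on the other strand, CCCGCC, a GC box motif searched after the sequences had been seen and present in the same window of 32.5% of promoters. The windows are chr17:30901617-30901866 for Glp1r, chr11:120530477-120530726 for Gcgr and chr19:60889499-60889748 for Grk5, all on the plus strand.
Glp1r: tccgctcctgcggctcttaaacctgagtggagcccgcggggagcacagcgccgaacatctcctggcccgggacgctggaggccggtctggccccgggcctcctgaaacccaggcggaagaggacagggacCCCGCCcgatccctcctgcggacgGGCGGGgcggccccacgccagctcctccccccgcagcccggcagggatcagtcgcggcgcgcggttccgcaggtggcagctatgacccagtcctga
Gcgr: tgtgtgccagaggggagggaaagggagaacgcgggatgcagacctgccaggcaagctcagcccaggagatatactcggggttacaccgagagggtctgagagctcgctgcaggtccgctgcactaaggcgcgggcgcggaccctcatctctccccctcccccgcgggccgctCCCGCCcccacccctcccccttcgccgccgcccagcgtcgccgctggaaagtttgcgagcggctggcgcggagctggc
Grk5: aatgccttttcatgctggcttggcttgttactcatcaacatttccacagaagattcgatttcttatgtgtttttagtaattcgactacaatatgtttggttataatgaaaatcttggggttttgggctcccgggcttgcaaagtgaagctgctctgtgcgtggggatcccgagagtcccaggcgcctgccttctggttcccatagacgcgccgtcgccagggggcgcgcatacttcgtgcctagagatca
The Glp1r and Gcgr windows contained 73.2% and 70.4% G or C, with 2 and 1 GC boxes. The Grk5 window had 49.6% G or C and no GC box, near the median of 52.4% over all promoters. Of the 3 starts listed for Grk6, whose windows are not shown, 1 had 58.0% G or C and no GC box, and the other two 67.6% and 68.0% with 4 GC boxes each, in windows that overlap almost fully.

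All 3 receptors had their highest level in beta cells. With the counts of the 6 conditions summed, Glp1r was 7.0 CP10K (6.86 to 7.13) in beta, 1.23 (1.11 to 1.36) in delta and 0.711 (0.626 to 0.805) in alpha cells. The beta cell value of Gipr was 2.93 CP10K (2.84 to 3.02), compared with 1.17 (1.06 to 1.29) in alpha and 1.00 (0.892 to 1.12) in delta cells. Gcgr was scarce, at 0.305 CP10K (0.278 to 0.334) in beta, 0.128 (0.0905 to 0.175) in delta and 0.0708 (0.0458 to 0.105) in alpha cells, the last on 25 counts in all. The next cell type in the order was the columns labelled neurons for each receptor, at 3.01, 2.01 and 0.223 CP10K. The counting intervals of beta and of these columns were apart for Glp1r and Gipr and overlapped for Gcgr, where the neuron value rested on 4 counts. From the third rank on, neighbours in the order of Glp1r and Gipr did not differ beyond their counting intervals, and for Gcgr this held throughout. Per kb of gene span, the level in beta cells was 0.243 CP10K for Gipr, 0.178 for Glp1r and 0.0189 for Gcgr.

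**Figure D1:**
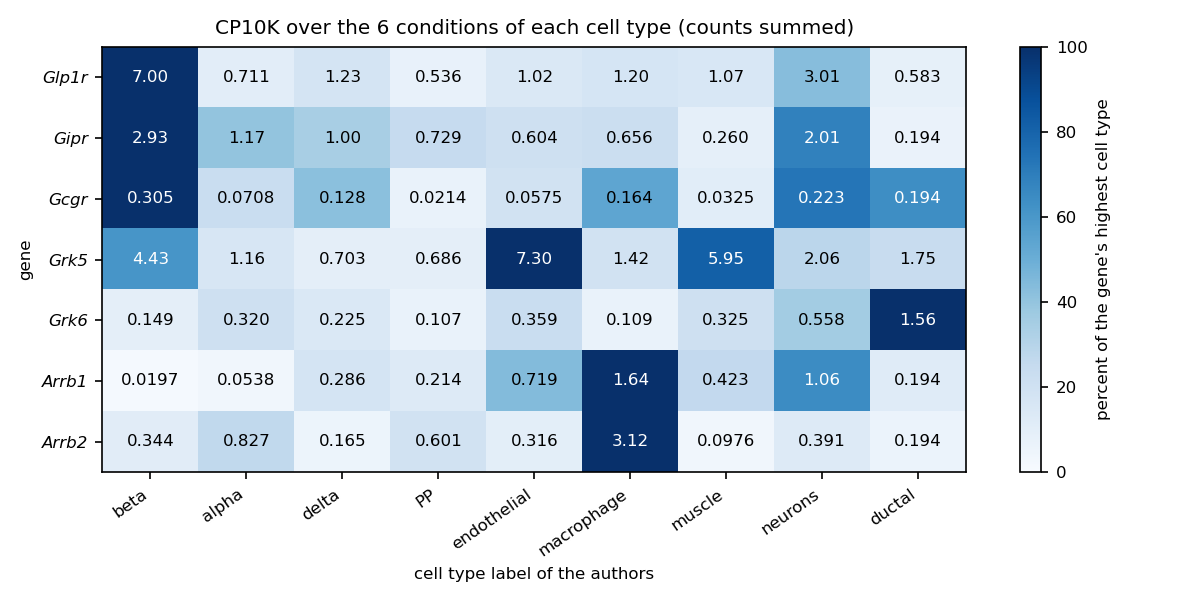
Level of the 7 genes (rows) in the 9 labelled cell types (columns) in CP10K, with counts of the 6 conditions summed and the shade giving the percent of the gene's highest cell type. The receptors peak in beta cells at 7.0, 2.93 and 0.305 CP10K, Grk5 in endothelial cells at 7.30 and both arrestins in macrophages, with counting intervals that overlap those of muscle for Grk5 and of the columns labelled neurons for Gcgr and Arrb1, while the ductal column that is darkest for Grk6 rests on 8 counts.

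The receptor level outside beta cells was read against beta cell markers, since RNA of the most abundant cells can reach other nuclei. In alpha nuclei Glp1r came to 6.28 to 12.4% of its level in beta nuclei of the same condition, and the median of 12 beta cell markers came to 8.84 to 15.5%. Glp1r was at or below the marker median in 6 of 6 conditions, and it was not read as alpha cell expression. In delta nuclei Glp1r was at 5.48 to 25.5% and the marker median at 4.38 to 20.9%, with Glp1r above the median but below the highest marker in 6 of 6 conditions. Gipr was at 20.2 to 47.2% in alpha and at 6.52 to 40.9% in delta nuclei, above the marker median in every condition. In alpha nuclei the highest marker was at 112 to 154%, so a gene lower in alpha than in beta nuclei could not pass it. The highest marker in delta nuclei was at 32.8 to 48.4%, and Gipr stayed below it in every condition. Gcgr in these nuclei rested on 0 to 15 counts per column. Grk5 was at 23.7 to 35.2% in alpha nuclei, above the marker median in 6 of 6 conditions. In delta nuclei Grk5 was at 7.87 to 30.9%, above the median in 5 of 6 and never above the highest marker. Whether RNA of beta cells contributed to these values was not tested.

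**Figure D2:**
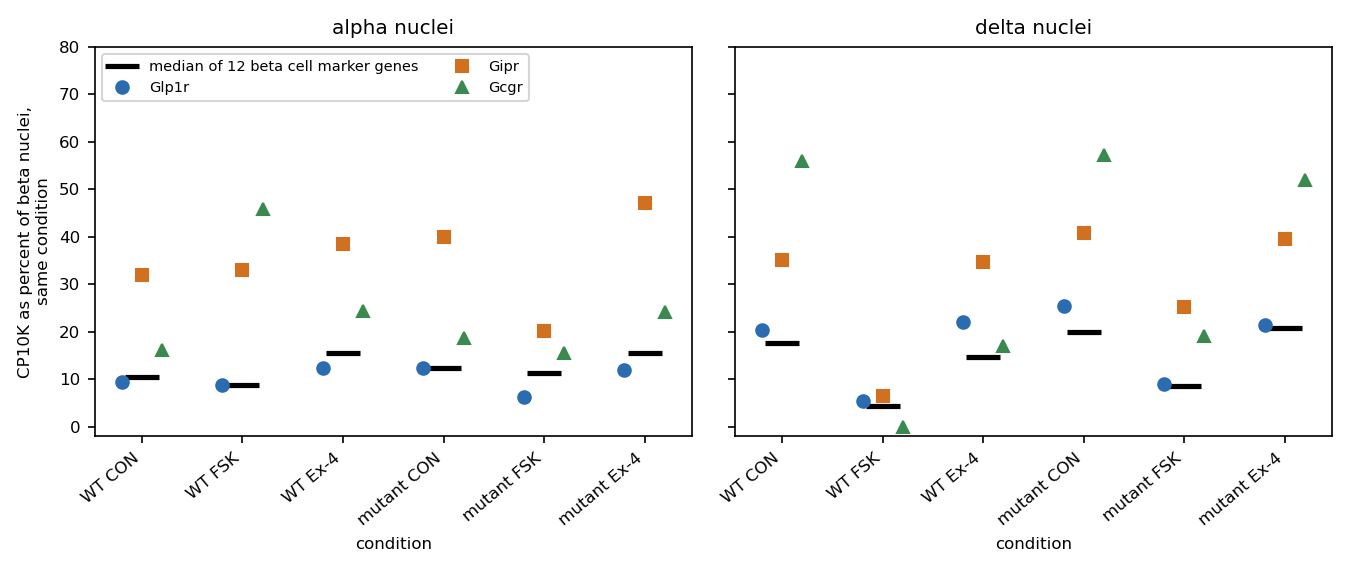
Level of each receptor in alpha (left) and delta nuclei (right) as a percent of its level in beta nuclei of the same condition, with the median of 12 beta cell markers as a black bar. Glp1r lies between 5.48 and 25.5%, at or below the marker median in alpha and above it in delta nuclei, and Gipr lies above it in every condition.

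The desensitisation genes had other cell type patterns. Grk5 was highest in endothelial (7.30 CP10K, 6.68 to 7.96) and muscle cells (5.95, 5.12 to 6.88), whose intervals overlapped, followed by beta cells (4.43, 4.33 to 4.54), and stood at 1.16 in alpha and 0.703 in delta cells. Grk6 was more frequent in alpha (0.320 CP10K, 0.264 to 0.385) and delta cells (0.225, 0.175 to 0.286) than in beta cells (0.149, 0.130 to 0.170), and its top rank in ductal cells rested on 8 counts. Arrb2 was highest in macrophages at 3.12 CP10K (2.36 to 4.04), with a range over conditions of 1.92 to 4.13 that did not overlap that of alpha cells. It was 0.827 CP10K (0.735 to 0.928) in alpha, 0.344 (0.315 to 0.375) in beta and 0.165 (0.122 to 0.218) in delta cells. Arrb1 was 1.64 CP10K (1.11 to 2.34) in macrophages and 1.06 (0.638 to 1.66) in the columns labelled neurons, whose intervals overlapped, and was higher in delta (0.286, 0.228 to 0.354) than in alpha (0.0538, 0.0324 to 0.0841) or beta cells (0.0197, 0.0133 to 0.0281). The Arrb1 level of delta nuclei was 1003 to 2310% of that of beta nuclei across the 6 conditions, and the Arrb2 level of alpha nuclei 156 to 473%. The Arrb1 percentages rest on 3 to 8 counts in each beta column and 10 to 20 in each delta column.

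WT beta cells held 9.39 CP10K of Glp1r untreated, 5.55 with FSK and 7.68 with Ex-4, and mutant beta cells 7.34, 5.27 and 6.25. WT CON was the highest and both FSK columns were the lowest, with intervals apart from those of the other 4 columns. FSK lowered Glp1r past the threshold in WT (ratio 0.591, 0.556 to 0.627), and the ratio in the mutant was 0.718 (0.664 to 0.775). After Ex-4, its own agonist, the ratio was 0.818 (0.774 to 0.865) in WT and 0.852 (0.788 to 0.921) in the mutant, both short of 1.5-fold. The ratio of untreated mutant to WT beta cells was 0.781 (0.733 to 0.833). Each of these intervals was below 1.

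**Figure D3:**
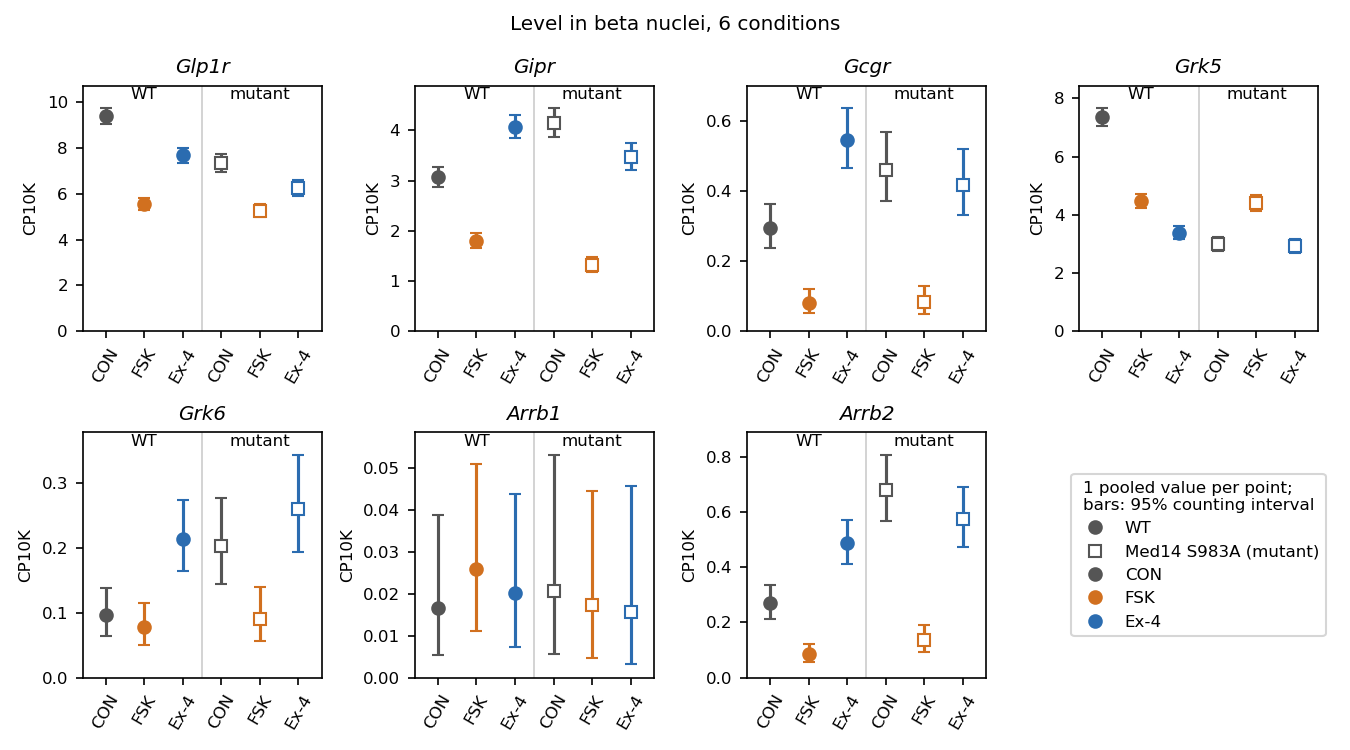
CP10K of the 7 genes in beta nuclei for CON, FSK and Ex-4 (x axis) in WT (filled circles) and mutant (open squares), 1 pooled value per point with its 95% counting interval. Gipr, Gcgr and Arrb2 are lowest in both FSK columns, and Grk5 stands at 7.35 in WT CON against 2.93 to 4.46 elsewhere.

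Gipr was 3.06 CP10K in untreated WT, 1.79 after FSK and 4.08 after Ex-4, and 4.14, 1.32 and 3.47 in mutant CON, FSK and Ex-4. The FSK columns were the lowest in either genotype, and WT Ex-4 and mutant CON were the highest with overlapping intervals. FSK lowered Gipr past the threshold in WT (ratio 0.585, 0.526 to 0.651) and in the mutant (0.319, 0.279 to 0.365). The Ex-4 ratio was 1.33 (1.22 to 1.45) in WT and 0.838 (0.755 to 0.930) in the mutant, and the ratio of mutant to WT CON was 1.35 (1.23 to 1.49), all short of the threshold.

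Gcgr was 0.295 CP10K in untreated WT, 0.0808 after FSK and 0.547 after Ex-4, and 0.462, 0.0825 and 0.418 in the mutant, on 19 to 163 counts. The order of the columns was close to that of Gipr. Gcgr rose with Ex-4 in WT (ratio 1.85, 1.42 to 2.42) and was at 0.904 (0.660 to 1.24) with Ex-4 in the mutant. It fell with FSK to 0.273 (0.168 to 0.430) in WT and to 0.178 (0.103 to 0.295) in the mutant, and was higher in mutant than in WT CON (1.56, 1.15 to 2.12).

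Grk5 was 7.35 CP10K (7.04 to 7.66) in untreated WT, 4.46 after FSK and 3.39 after Ex-4, and 2.98, 4.41 and 2.93 in the mutant. WT CON thus stood apart, and the interval of every other column ended below 5. Ex-4 lowered Grk5 in WT (ratio 0.461, 0.428 to 0.497), a fall lower than all but 2.10% of the kept genes. In the mutant the Ex-4 ratio was 0.983 (0.873 to 1.11), at a baseline that was already at 0.406 (0.370 to 0.445) of WT CON. FSK lowered it in WT (0.607, 0.567 to 0.650), whereas in the mutant the ratio was 1.48 (1.33 to 1.64), just under the threshold. The values after FSK were alike in both genotypes, with a ratio of mutant to WT of 0.988 (0.910 to 1.07).

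Grk6 was 0.0963 CP10K in untreated WT, 0.0776 after FSK and 0.215 after Ex-4, and 0.203, 0.0912 and 0.261 in the mutant, on 21 to 64 counts. Its low columns were WT CON and both FSK columns. Grk6 rose with Ex-4 in WT (ratio 2.23, 1.42 to 3.59) and was higher in mutant than in WT CON (2.10, 1.27 to 3.53), the opposite of Grk5. In the mutant the Ex-4 ratio was 1.29 (0.831 to 2.01). FSK lowered it in the mutant (0.450, 0.252 to 0.784), while the WT ratio was 0.806 (0.449 to 1.43).

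Arrb2 was 0.269 CP10K in untreated WT, 0.0840 after FSK and 0.486 after Ex-4, and 0.680, 0.135 and 0.574 in the mutant. It rose with Ex-4 in WT (ratio 1.81, 1.37 to 2.40) and was higher in mutant than in WT CON (2.53, 1.90 to 3.38). FSK lowered it to 0.312 (0.193 to 0.491) in WT and to 0.198 (0.129 to 0.294) in the mutant, and the Ex-4 ratio in the mutant was 0.844 (0.649 to 1.10). With conditions summed, Arrb2 and Grk6 were higher in alpha than in beta nuclei. In beta nuclei, 9 alpha cell markers had a median of 4.82% of their alpha level in WT CON. This median was 3.36% in WT Ex-4 and 10.3% in mutant CON. Their summed level was at 6.87, 10.0 and 10.5%. The part of alpha cell RNA in the Arrb2 and Grk6 values was not tested. Arrb1 rested on 3 to 8 counts in each beta column (0.0157 to 0.0259 CP10K) and did not pass the filter on low values. No change of Arrb1 in beta cells was detectable at this depth, as with FSK in WT, where the ratio interval ran from 0.449 to 6.05.

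Of the 6 genes that passed the filter in beta cells, 3 were higher (Gcgr, Grk6 and Arrb2) and 1 was lower (Grk5) with Ex-4 in WT, where 27.4% of 10089 genes tested were higher and 12.4% lower. The same names were past the threshold in mutant against WT CON, 3 higher and 1 lower, beside 25.5% and 22.3% of genes. Both comparisons use the WT CON column, so their likeness is not independent. None of the 6 was past the threshold with Ex-4 in the mutant, where 4.41% of genes were higher and 5.62% lower. With FSK, 5 of the 6 were lower in WT and 4 in the mutant and none was higher, against 33.6% lower and 6.98% higher among genes in WT, and 32.2% lower and 22.1% higher among genes in the mutant. The intervals of all 17 member ratios past the threshold in beta cells excluded 1.

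The median log2 ratio over all genes tested was 0.16 with Ex-4 and -0.31 with FSK in WT beta cells and -0.14 with FSK in the mutant, -0.14 with FSK in WT alpha cells, and 0.21 with Ex-4 and -0.13 with FSK in WT delta cells. In beta cells the ratios also followed gene length. Across the kept genes, the trend of the log2 ratio on length reached 0.74 at the length of Arrb2 and -0.46 at that of Grk5 with Ex-4 in WT, and 0.68 and -0.62 in mutant against WT CON. With FSK it was -0.78 and 0.01 at these lengths in WT, against -0.82 and 0.59 in mutant cells. The part of gene length in the members' values was not tested. With Ex-4 in the mutant the trend at the lengths of the 6 kept members was close to 0, down to -0.07. Less the trend, Grk5 was at -0.66 (log2) with Ex-4 in WT and at -0.69 in mutant against WT CON. Gcgr was then at -1.27 and -1.92 and Arrb2 at -0.89 and -1.52 with FSK in WT and mutant, Grk5 at -0.73 in WT and Gipr at -0.92 in the mutant. These values remained past 1.5-fold, as did those of Grk6 with Ex-4 in WT (0.63) and at mutant baseline (0.65) and of Arrb2 at mutant baseline (0.66). Short of it were Gcgr (0.36) and Arrb2 (0.11) with Ex-4 in WT, Glp1r (-0.49) and Gipr (-0.06) with FSK in WT, Grk6 with FSK in the mutant (-0.58) and Gcgr at mutant baseline (0.23). Among ratios below the threshold, Grk5 turned sign with FSK in the mutant (0.56 to -0.02), Grk6 with FSK in WT (-0.31 to 0.29), and Gipr with Ex-4 in WT (0.41 to -0.25) and at mutant baseline (0.44 to -0.15). With the median ratio set to 1, only Gcgr and Arrb2 remained past 1.5-fold with FSK in WT beta cells. That scaling moved the share of higher calls among all genes from 68.9% to 52.6% with Ex-4 and from 17.2% to 41.6% with FSK in WT, and removing the trend moved it to 49.7% and 48.3%.

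**Figure D4:**
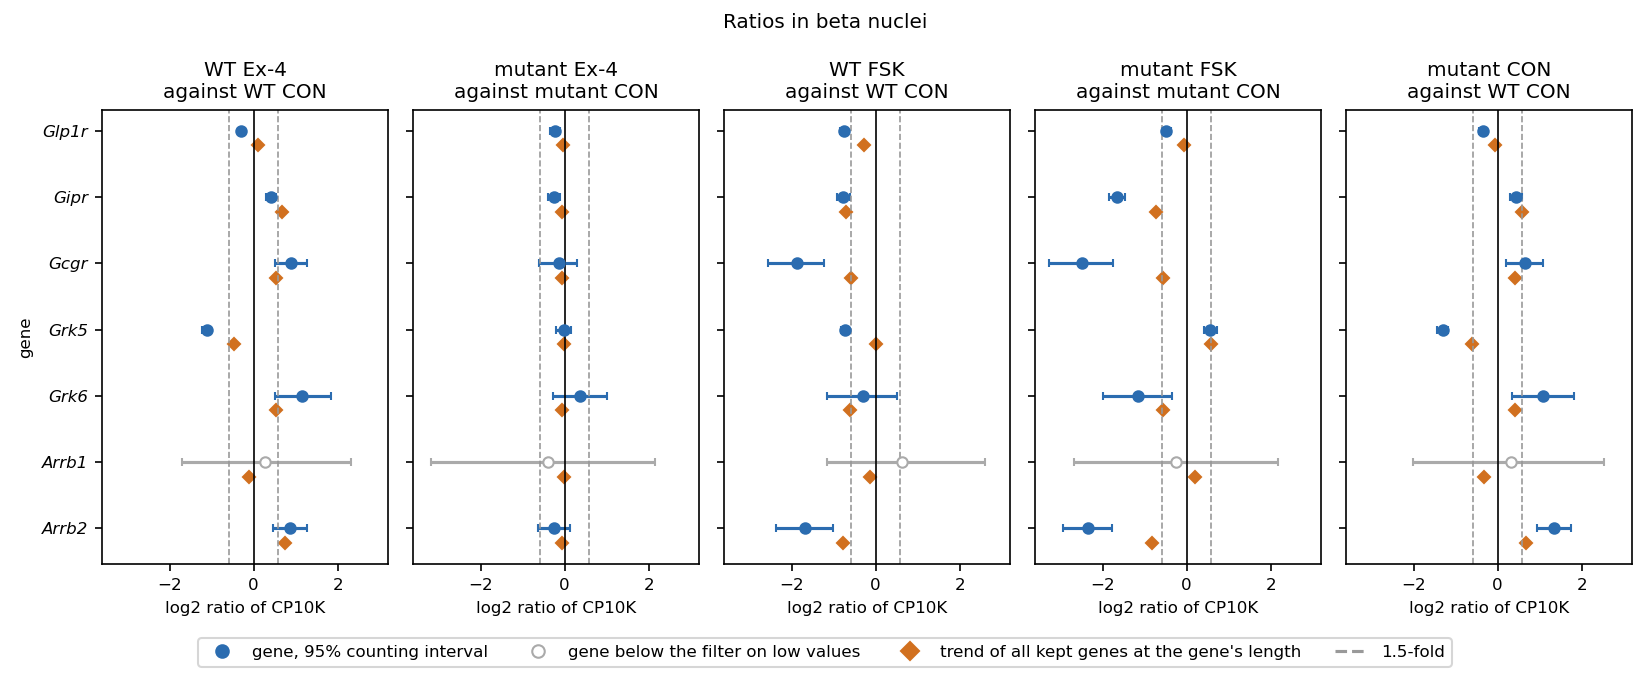
Log2 ratio of CP10K of the 7 genes in beta nuclei for 5 comparisons, with 95% counting intervals, and as orange diamonds the trend of all kept genes at the same gene length. Ratios of Gcgr and Arrb2 with FSK lie beyond the trend in both genotypes, and that of Grk5 with FSK in the mutant (0.56) lies on it (0.59).

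In alpha cells Gipr was 0.978 CP10K in untreated WT, 0.594 after FSK and 1.57 after Ex-4, and 1.65, 0.267 and 1.64 in the mutant, on 16 to 134 counts. It was thus lowest with FSK in each genotype. Gipr rose with Ex-4 in WT (ratio 1.61, 1.08 to 2.42), was higher in mutant than in WT CON (1.69, 1.18 to 2.46) and fell with FSK in the mutant (0.162, 0.0968 to 0.257), lower than all but 0.221% of genes. Less the length trend, the log2 ratios of the first 2 went from 0.69 to 0.09 and from 0.76 to 0.19, short of the threshold, and that of the last from -2.63 to -2.52. The WT FSK ratio of 0.607 had an interval of 0.318 to 1.11, and the Ex-4 ratio in the mutant was 0.991 (0.772 to 1.27). Arrb2 in alpha cells was 0.549, 0.260 and 0.864 CP10K in WT CON, FSK and Ex-4, and 1.06, 0.636 and 1.10 in the mutant. Mutant columns were the higher in each treatment. The ratio of mutant to WT was 1.94 (1.21 to 3.21) at baseline, 2.45 (1.10 to 6.40) with FSK and 1.27 (0.860 to 1.90) with Ex-4. Less the length trend the log2 ratio at baseline went from 0.95 to 0.30, short of the threshold. Arrb2 fell with FSK in the mutant (0.599, 0.414 to 0.859). Grk5 was 1.74, 1.45 and 1.02 CP10K in WT and 1.05, 1.32 and 0.781 in the mutant. It was lower with Ex-4 in WT (0.585, 0.396 to 0.858) and at mutant baseline (0.603, 0.436 to 0.836). Less the length trend these log2 ratios went from -0.77 to -0.23 and from -0.73 to -0.05, short of the threshold, which the beta cell values passed.

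Of the 5 members that passed the filter in alpha cells, 3 were higher (Gipr, Grk6 and Arrb2) and 1 lower (Grk5) with Ex-4 in WT, beside 27.7% and 22.4% of genes, but the intervals of Grk6 and Arrb2 included 1. In mutant against WT CON, 2 were higher and 1 lower, beside 26.2% and 26.4%. With the length trend removed, 0 members were past the threshold in either comparison. Grk6 alone was lower with Ex-4 in the mutant, with an interval that included 1 (0.316 to 1.06), beside 13.1% of genes lower and 7.24% higher. With FSK, 4 were lower in WT, beside 26.6% of genes lower and 15.4% higher, and the intervals of all 4 included 1. In the mutant 3 were lower with FSK (Glp1r, Gipr and Arrb2), all with intervals apart from 1, beside 14.6% of genes lower and 24.4% higher. Glp1r, at 26 counts after FSK and 73 in CON, changed to 0.367 (0.225 to 0.582). As above, its level in alpha nuclei was not read as alpha cell expression. The summed level of beta cell markers in the same alpha columns was 15.4 and 17.7 CP10K. In mutant beta nuclei the FSK ratio of Glp1r was 0.718 (0.664 to 0.775). The part of beta cell RNA in the alpha value was not tested. Gcgr and Arrb1 did not pass the filter in alpha cells, with at most 8 and 7 counts.

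In delta cells the receptors were lowest with FSK. Glp1r was 1.90 CP10K in untreated WT, 0.304 after FSK and 1.69 after Ex-4, and 1.87, 0.475 and 1.34 in the mutant. The FSK intervals, up to 0.520 and 0.678, did not overlap those of the other 4 columns. Glp1r fell with FSK to 0.160 (0.0810 to 0.291) in WT and 0.254 (0.163 to 0.384) in the mutant. Gipr in WT delta nuclei was 1.08 CP10K in CON, 0.117 with FSK and 1.41 with Ex-4, and in mutant nuclei 1.70, 0.333 and 1.38, and with FSK it fell to 0.109 (0.0334 to 0.276) and 0.196 (0.116 to 0.317). Beta cell markers moved in the same columns: their median percent of the beta cell level was 17.6 in WT CON and 4.38 in WT FSK, and 19.9 and 8.47 in the mutant, and their summed level in delta nuclei was 18.2 and 8.51 CP10K in WT, against 11.7 and 10.96 in mutant columns. The part of this in the receptor values was not tested. Gcgr was listed at 0 counts with FSK in WT against 6 in CON. With the floor of 3 counts its log2 ratio was -1.24, and the upper interval limit was -0.47. In the mutant Gcgr was at 1 count against 15 (ratio 0.0598, 0.00142 to 0.389).

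Grk5 in delta cells was 1.21 CP10K in untreated WT, 0.351 after FSK and 0.509 after Ex-4, and 0.865, 0.459 and 0.905 in the mutant. Both FSK columns were the lowest. As a percent of the beta cell level, Grk5 was 16.5 in WT CON and 7.87 in WT FSK, and 29.0 and 10.4 in the mutant, and the marker median given above for these columns was also lower with FSK. The part of the markers in the Grk5 values was not tested. Grk5 fell with Ex-4 in WT (ratio 0.420, 0.240 to 0.715) and with FSK in WT (0.289, 0.149 to 0.529) and in the mutant (0.531, 0.323 to 0.857). At mutant baseline the ratio was 0.713 (0.465 to 1.10). Grk6 fell with FSK in WT on 2 counts against 9 (0.188, 0.0198 to 0.910). Arrb2 was at 0 counts in untreated WT, 2 after FSK and 9 after Ex-4, and at 16, 2 and 20 in the mutant. With the floor of 3 counts for WT CON, the log2 ratio was 1.33 with Ex-4 in WT and 1.77 at mutant baseline. The lower interval limits, which do not use the floor, were 0.73 and 1.30. Less the length trend these 2 ratios were 0.46, short of the threshold, and 0.89. No fold is given for WT FSK. Arrb1 in delta cells was 0.276, 0.444 and 0.301 CP10K in WT and 0.212, 0.174 and 0.362 in the mutant. Its ratio was 1.61 (0.713 to 3.88) with FSK in WT and 1.71 (0.795 to 3.83) with Ex-4 in the mutant, neither apart from 1.

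All 7 members passed the filter in delta cells. With FSK, 5 were lower and 1 (Arrb1) higher in WT, beside 29.8% of genes lower and 17.6% higher, and 6 were lower and none higher in the mutant, beside 25.5% and 26.4%. The intervals of Arrb1 in WT and of Grk6 in the mutant (8 against 16 counts) included 1. With Ex-4 in WT, 1 was higher (Arrb2) and 2 lower (Grk5 and Gcgr, the latter on 4 against 6 counts with an interval that included 1), beside 32.6% and 16.6%. In the mutant 1 was higher with Ex-4 (Arrb1) and none lower, beside 11.4% and 12.7% of genes. At mutant baseline 3 were higher (Gipr, Gcgr and Arrb2) and none lower, beside 29.8% and 23.9%. Here the interval of Gcgr included 1, and less the length trend Gipr went from 0.66 to -0.13 and Gcgr from 0.68 to 0.09 (log2), which left Arrb2 alone past the threshold. Over the 3 cell types, 51 member ratios passed the threshold, of which 39 had an interval apart from 1.

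**Figure D5:**
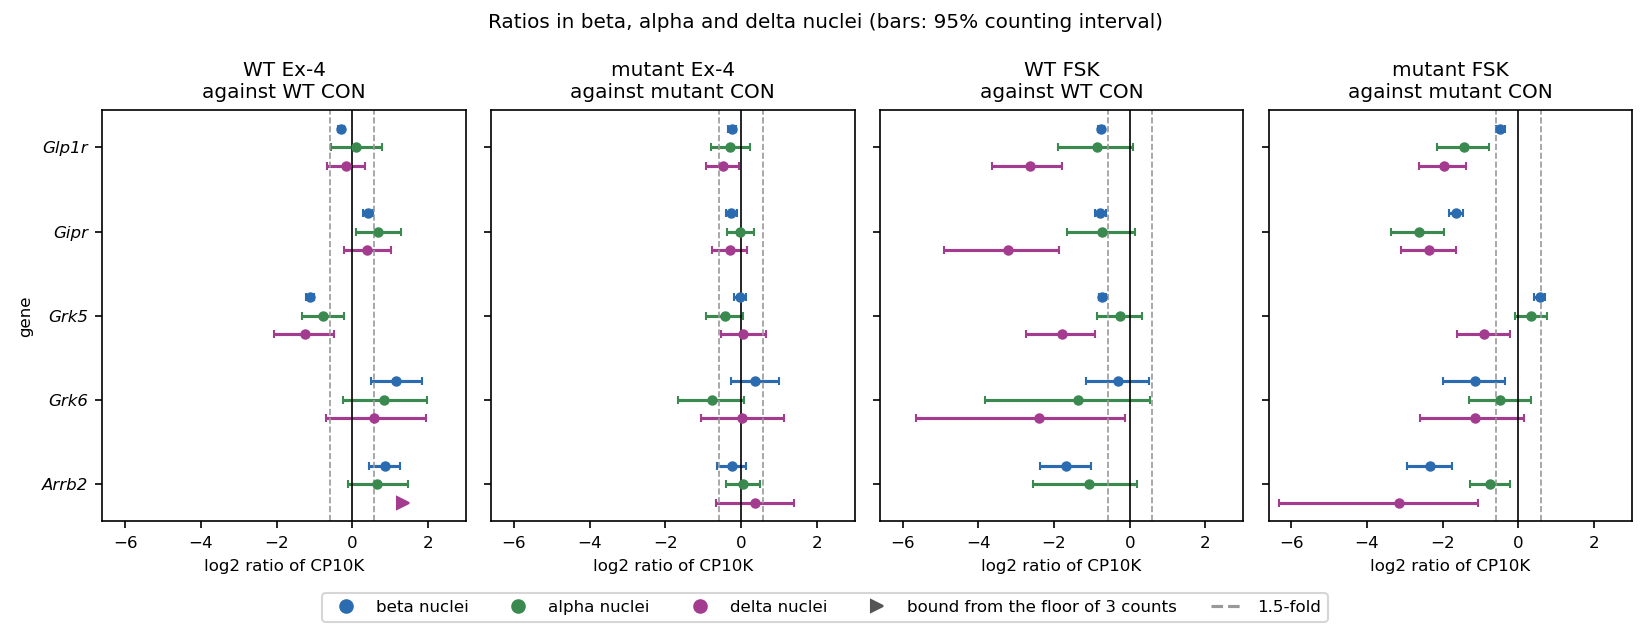
Log2 ratio of CP10K in beta, alpha and delta nuclei for Ex-4 and FSK against CON in each genotype, with 95% counting intervals, for 5 of the genes. With FSK, Glp1r and Gipr lie below 0 in all 3 cell types, with intervals that include 0 in WT alpha nuclei. Grk5 with FSK in the mutant is at 0.56 in beta and -0.91 in delta nuclei. Arrb2 in WT delta nuclei has no value with FSK, and its 1.33 with Ex-4 rests on the floor of 3 counts.

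Other genes of the pathway were described from 4 lists, to be read against the shares of all beta cell genes past the threshold given above. Counts with the length trend removed follow each list, while ratios of single list genes are given before its removal. Among the other GRKs and the arrestin family (9 genes in the table, all kept in beta cells), 4 were higher and none lower with Ex-4 in WT, at a median log2 ratio of 0.57 beside 0.16 over all genes and 27.4% of genes higher. Less the length trend 2 were higher and none lower, at a median of 0.20. In the mutant 2 were lower and none higher with Ex-4. Grk2, the widely used cytosolic kinase of the family, changed from 0.279 to 0.460 CP10K in WT with Ex-4 (ratio 1.65, 1.25 to 2.19). With FSK, 4 were lower and 1 higher in WT (33.6% of genes lower) and 3 and 1 in the mutant (32.2%). Less the length trend this became 0 lower and 2 higher in WT, the other direction, and 2 and 2 in the mutant. Txnip, an alpha-arrestin that responds to glucose, fell with FSK to 0.430 (0.292 to 0.625) in WT and 0.299 (0.190 to 0.458) in the mutant. As 0 genes of the list were lower in WT less the trend, the WT fall of Txnip was then short of the threshold. At mutant baseline 3 were higher and 1 lower, and 4 and 2 less the trend. Of the RAMPs, which modify receptors of this family, and the other secretin family receptors, 3 of 9 were kept in beta cells, with 1 higher with Ex-4 in WT, 1 lower with FSK in each genotype, none changed with Ex-4 in the mutant, and 1 higher and 1 lower at mutant baseline. Less the trend, none was past the threshold with Ex-4 or at baseline, and with FSK 2 were higher and 1 lower in WT and 1 was lower in the mutant.

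Genes of receptor internalisation and sorting act after the arrestins. Of 32 kept in beta cells, 5 were higher and 1 lower with Ex-4 in WT, beside 27.4% and 12.4% of genes. The balance turned to 1 higher and 4 lower less the length trend, and to 2 and 4 with the median ratio set to 1. With Ex-4 in the mutant 1 was higher. With FSK 4 were lower in WT and 4 higher and 6 lower in the mutant, beside 33.6% of genes lower in WT and 22.1% higher and 32.2% lower in the mutant. Less the trend, 2 were higher and 2 lower in WT, and 6 were higher and 6 lower in mutant cells. At mutant baseline 4 were higher and 5 lower, beside 25.5% and 22.3% of genes, and 4 and 3 less the trend. Dnm3, a dynamin that pinches off vesicles, fell with Ex-4 (0.544, 0.491 to 0.602) and with FSK (0.434, 0.389 to 0.484) in WT. Usp8, which removes ubiquitin from cargo on endosomes, rose with Ex-4 in WT (1.61, 1.33 to 1.95), was higher at mutant baseline (1.68, 1.36 to 2.06) and fell with FSK in the mutant (0.617, 0.494 to 0.770). Flot2, a flotillin, rose with Ex-4 in WT (1.60, 1.21 to 2.11). With 1 gene of the list higher less the trend, the rises of Usp8 and Flot2 with Ex-4 did not both remain past the threshold. Snx27, which returns cargo with the retromer, was lower at mutant baseline (0.592, 0.464 to 0.750) and rose with FSK in the mutant (1.71, 1.33 to 2.20). With FSK in the mutant, Clta, a clathrin light chain, rose (1.52, 1.08 to 2.15), and Ap2a1, of the clathrin adaptor (0.620, 0.507 to 0.757), and Gprasp1, a sorting protein (0.626, 0.545 to 0.720), fell. Nedd4l, a ubiquitin ligase (0.535, 0.477 to 0.599), and Stam (0.591, 0.420 to 0.821) were lower at mutant baseline.

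The list of receptor coupling holds G protein subunits of several classes, adenylyl cyclases and genes that act downstream of cAMP, among others. Its genes moved in both directions with FSK. Of 16 coupling genes kept in beta cells, 4 were higher and 5 lower with FSK in WT, beside 6.98% and 33.6% of genes, and 8 and 5 in the mutant, beside 22.1% and 32.2%. Less the length trend 5 were higher and 2 lower in WT, and 4 and 2 in the mutant. With the median ratio set to 1 there were 4 and 2 in WT. Gnas, which encodes the stimulatory G protein subunit used by all 3 receptors and shares its locus with overlapping transcripts, rose from 2.09 to 12.7 CP10K in WT (ratio 6.05, 5.56 to 6.59) and from 3.15 to 15.8 in the mutant (5.02, 4.60 to 5.48). Adcy6, an adenylyl cyclase, fell to 0.435 (0.350 to 0.539) and 0.233 (0.182 to 0.294), and Gnai2, an inhibitory subunit, to 0.606 (0.515 to 0.713) and 0.518 (0.423 to 0.632). Creb1 rose in both genotypes (1.95, 1.70 to 2.25, and 2.72, 2.24 to 3.32), as did Gnai3 (1.51, 1.31 to 1.73, and 3.43, 2.74 to 4.32). Prkaca, a catalytic subunit of protein kinase A, fell in WT (0.537, 0.395 to 0.724). With 2 genes lower in WT less the trend, the WT falls of Adcy6, Gnai2 and Prkaca did not all remain past the threshold.

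With Ex-4 in WT, 4 coupling genes were higher and 4 lower, beside 27.4% and 12.4% of genes, with 2 and 2 less the length trend and 2 and 6 with the median ratio set to 1, and none was past the threshold with Ex-4 in the mutant. Adcy6 rose (1.64, 1.41 to 1.91), while Gnaq (0.549, 0.500 to 0.603), Rapgef4, the cAMP sensor known as Epac2 (0.643, 0.606 to 0.682), and Adcy9 (0.660, 0.611 to 0.713) fell. With 2 genes lower less the trend, these falls did not all remain past the threshold. At mutant baseline 5 were higher and 6 lower, beside 25.5% and 22.3% of genes, with 3 and 2 less the trend. Before its removal Adcy6 (1.80, 1.53 to 2.12) and Gnas (1.51, 1.34 to 1.69) were above WT, and Gnai3 (0.455, 0.360 to 0.571), Prkacb (0.460, 0.381 to 0.552) and Gnaq (0.486, 0.433 to 0.544) below it. With 2 genes lower less the trend, the ratios of Gnai3, Prkacb and Gnaq did not all remain past the threshold.

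Of the other GRKs and the arrestin family kept in delta cells, 4 of 6 were lower with FSK in WT and 3 of 6 in the mutant and none was higher, beside 29.8% and 25.5% of genes lower. Less the length trend 3 and 4 were lower. Of 7 kept in alpha cells, 3 were lower in WT and 1 in the mutant, beside 26.6% and 14.6% of genes lower, and 0 and 1 were higher, with 3 and 2 lower and 0 and 2 higher less the trend.

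The genes most like each member were sought among 10724 genes by Pearson's r of log2(CP10K + 1) over the 18 beta, alpha and delta columns, which share libraries and depth. This r takes in level differences between the cell types as well as those between conditions. The closest genes for Glp1r were Ppp1r1a (0.98), a phosphatase inhibitor controlled by protein kinase A, Col6a6 (0.98) and Prkag2 (0.97). Brsk2 (0.97), Sptbn4 (0.95) and Kif19a (0.94) came closest to Gipr, and Appl2, Rgs16 and Npr1 (0.93 each) to Gcgr. The pattern of Grk5 was near to those of 5033421B08Rik (0.97) and Ret (0.96), and that of Grk6 to Klc3 (0.93), Ccdc8 (0.92) and Zfp276 (0.90). Arrb1 was followed by Lca5, Lrp8 and Cacna1h (0.95 each) and Arrb2 by Gnl2 (0.95), Zfp651 (0.94) and Ddx21 (0.94). Within the 6 beta columns, Gipr and Gcgr had an r of 0.97 and Arrb2 and Gcgr of 0.92. Grk5 had values of -0.38 with Gipr, -0.47 with Gcgr, -0.64 with Arrb2, -0.78 with Grk6, -0.10 with Arrb1 and 0.38 with Glp1r. Over the 18 columns, Grk5 had values of 0.86 with Glp1r, 0.63 with Gipr and 0.49 with Gcgr. They were -0.38 with Grk6, -0.67 with Arrb1 and -0.04 with Arrb2. The part of gene length in these values was not tested.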

How the data were processed

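The authors prepared nuclei from hand-picked islets, sorted them by DAPI, barcoded them by combinatorial indexing, aligned the reads to mm39, removed nuclei with extreme counts or a high mitochondrial share, and assigned cell types. Annotation release and strand use: not given in the sources used here. The deposited values are natural log values, ln(1 + CP10K), of counts pooled by condition and cell type, 54 columns, all of which were used. Undoing the log gave whole counts for 100% of values within 0.001, and column sums of 10000 CP10K.

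Ratios of CP10K between 2 columns were called past 1.5-fold among genes kept by a filter on the mean over the 6 conditions, set at the 40th percentile of all genes not at 0 throughout (0.0603 CP10K and 10093 genes in beta, 9487 in alpha and 9256 in delta cells). A gene with 0 counts in both columns of a comparison was not tested. A count of 0 was set to a floor of 3 counts. Intervals (95%) are exact Poisson and exact Clopper-Pearson intervals and cover counting error only. With 1 pooled value per column, no test was run and no replicate spread exists. The ratio and its interval were checked on simulated Poisson counts, which hold no variation between nuclei or islets, so the check covers counting error only. The length trend was a lowess curve (span 0.3) on the log of GRCm39 gene span. A span was found for 16531 genes and not for 831.

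Members and gene lists were chosen with earlier results of these data known. Named genes were the members, list genes past 1.5-fold in a beta cell comparison whose mean reached the median of the kept genes (at most the 3 highest and 3 lowest of a list), and the 3 genes most correlated with each member, of which 1 is not reported here. Alternatives were a 2-fold threshold, the log2(CP10K + 1) scale, dropping the filter or setting it at the 75th percentile, columns rescaled without 13 genes (6 of them mitochondrial), a median ratio of 1, removal of the length trend, and, for cell types, the median over conditions. Promoter sequences are from RefSeq (GRCm38.p6), and none was printed or searched for Gipr, Arrb1 and Arrb2. The software was scipy 1.17.1, statsmodels 0.14.6, pandas 2.3.3, numpy 2.4.6 and matplotlib 3.10.9 under Python 3.11.15.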

Additional observations from a re-analysis of the deposited data

Results flagged for a closer look

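Gipr moved in opposite directions with Ex-4 in WT and mutant beta cells, with both counting intervals apart from no change. WT beta cells had a log2 ratio of 0.41 (0.29 to 0.54) and mutant ones of -0.26 (-0.41 to -0.10), a difference of 0.67, and neither passed 1.5-fold. The pools have no replicates and this difference was not tested. Less the trend on gene length the values were -0.25 and -0.19.

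Grk5 differed in the same way with FSK in beta cells, at -0.72 (-0.82 to -0.62) in WT and 0.56 (0.41 to 0.71) in the mutant, a difference of -1.28 that was not tested. The levels after FSK were 4.46 and 4.41 CP10K, and the baselines 7.35 and 2.98. At the length of Grk5 the trend was 0.01 for WT and 0.59 for the mutant. Less the trend the values were -0.73 and -0.02.

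With FSK in the mutant, Grk5 was also on opposite sides in beta cells (0.56) and delta cells (-0.91, -1.63 to -0.22), a difference of 1.48 that was not tested. The delta value rests on 29 counts against 49, and less the trend the values were -0.02 and -1.33.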

How the results depend on the processing

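No paired analysis was possible because each condition and cell type has 1 pooled column, and for the same reason no replicate could be left out. Of the 51 member calls, 51 held with columns rescaled and with no filter, 45 with the median ratio set to 1, 34 with the length trend removed, 28 at 2-fold, 26 with the filter at the 75th percentile and 11 on the log2(CP10K + 1) scale, which understates the change of weakly counted genes by construction.

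The numbers of members past the threshold are given in the order WT Ex-4, mutant Ex-4, WT FSK, mutant FSK and mutant baseline. They were 4, 0, 5, 4 and 4 in beta, 4, 1, 4, 3 and 3 in alpha and 3, 1, 6, 6 and 3 in delta cells. On the log2(CP10K + 1) scale they were 1, 0, 2, 1 and 1 in beta, 0, 0, 0, 1 and 0 in alpha and 0, 0, 3, 2 and 0 in delta cells. With the 75th percentile, beta cells had 1 (WT Ex-4), 3 (WT FSK), 1 (mutant FSK) and 1 (baseline), alpha cells 0 (mutant Ex-4), and delta cells 1, 0, 3, 3 and 1. At 2-fold, beta cells had 2 with WT Ex-4 and 2 with WT FSK, alpha cells 0, 0, 2 and 0 (WT Ex-4, mutant Ex-4, WT FSK and baseline), and delta cells 0 with mutant Ex-4 and 1 at baseline. With the length trend removed, beta cells had 2 with WT Ex-4 and 3 with WT FSK, alpha cells 0 with WT Ex-4 and 0 at baseline, and delta cells 1 at baseline. With the median ratio set to 1, WT FSK in beta cells had 2 and the delta baseline 1. With no filter, mutant Ex-4 in alpha cells had 2. All other counts stayed within 1.5 times.

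Among called single ratios, 2 turned sign when the length trend was removed, Arrb2 with Ex-4 in WT alpha cells (to -0.00838) and Gipr at mutant baseline in delta cells (to -0.13). With the median over conditions in place of summed counts, the log2 level of Glp1r in beta over alpha cells was 3.06 in place of 3.30, and over delta cells 2.17 in place of 2.51, while Gipr and Gcgr moved by less than their counting intervals. Over all genes tested, the numbers past the threshold ran from 1012 to 5474 over the 15 comparisons, from 4 to 790 on the log2(CP10K + 1) scale, from 56 to 2115 with the 75th percentile, from 224 to 3067 at 2-fold and from 2948 to 8069 with no filter. Scaling moved the share of higher calls by over 10 points in alpha cells for WT Ex-4 (55.3% to 65.5%) and mutant FSK (62.6% to 50.6%) with columns rescaled, and in delta cells for WT Ex-4 (66.2% to 50.5%) with the median ratio set to 1. Counts limit alpha and delta cells most, where 22 of 34 calls had an interval apart from 1.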
